A study of Homo sapiens with 4 samples.

Results

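The set described here holds 39 genes of DNA repair and damage signalling, chosen by symbol from a list and not by their values, out of 53777 Ensembl genes in the table. All 39 were found, each as 1 Ensembl row, and all passed the filter of at least 1 FPKM (fragments scaled to transcript length and to library total) in at least 2 libraries. RNA was sequenced from NUGC3, a long-established line of human stomach cancer cells, in 2 libraries of wild-type cells (genotype wild_type) and 2 of cells with a knockdown of the transcription factor MYC (genotype MYC_KD). The labels name the genotype alone, with the agent of the knockdown, its duration and any control treatment not given in the sources used here. Labels do not say whether replicates are separate cultures, so the p-values below cover the spread between these libraries alone, and that spread may be technical.

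Cells mend DNA by several routes that answer different lesions. Homologous recombination copies an intact sister chromatid to repair a double-strand break, and end joining ligates the broken ends directly. The Fanconi anaemia pathway removes crosslinks between the strands, mismatch repair corrects copying errors, and base excision repair removes single damaged bases. The kinases ATM and ATR sense breaks and stalled forks and pass the signal to CHEK2 and CHEK1, which hold the cell cycle.

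MYC itself stood at 82.9 and 82.01 FPKM in wild-type cells and 64.98 and 75.8 FPKM in knockdown cells. The knockdown pair was the lower one, but the log2 change of −0.23 (standard error 0.10) missed the threshold (limma adjusted p = 0.237). Without knockdown replicate 2 it was −0.34 and passed (limma adjusted p = 0.017), and without knockdown replicate 1 it was −0.12 and did not (0.111). Log2 changes throughout are knockdown minus wild type on log2(FPKM + 1), which understates the change of low genes. The deposited values of the Ensembl rows, taken as FPKM, summed to between 615172 and 676445 per library, and knockdown replicate 2 had the lowest sum. Steps in the low values put the depth of the other 3 libraries at 72.2% to 77.4% of that of wild type replicate 1. The epithelial markers summed to between 5045 and 5904 FPKM, while PTPRC of leukocytes, COL1A2, COL3A1 and DCN of fibroblasts and VWF of endothelium were listed at 0 in every library. The sums of the other-cell lists were 2.98 to 8.14 FPKM for fibroblasts (nearly all COL1A1), 13.3 to 22.8 FPKM for immune cells (nearly all CD68) and 0 to 0.21 FPKM for endothelium. Interferon-stimulated genes stood apart in knockdown replicate 1, where 15 of them summed to 1465 FPKM against 186 to 206 FPKM in the other libraries. That library enters every comparison below. Values without each knockdown library in turn are given for the members whose call changed. In those fits limma called 43% of all genes without knockdown replicate 1 and 42.8% without knockdown replicate 2, since the spread then rested on the close wild-type pair.

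Most of the repair genes differed little between wild-type and knockdown cells. PARP1, the enzyme that marks single-strand breaks with poly(ADP-ribose), fell to 69.1% of its wild-type mean, and it was the only member that passed the test. The checkpoint kinase ATM stood at 144% of its wild-type mean and the recombination gene BRCA1 at 132%, and neither passed (limma adjusted p = 0.104 and 0.127). In bulk RNA, fewer cells of a type and less RNA per cell cannot be told apart. At an adjusted p under 0.10 (limma, Benjamini-Hochberg adjustment over 12953 genes), 1 of 39 members was called, lower, and 0 were called higher, or 2.56% of members, where 10.4% of all genes tested were called (5.5% higher and 4.91% lower). At 0.05 limma called 0 members and 0% of all genes, and at an unadjusted p under 0.05 there were 6 members, 3 higher and 3 lower, where 25.9% of all genes lay under it. The members' median log2 change was −0.025, beside 0.038 over all genes tested. Their median absolute log2 change was 0.11 beside 0.21 over all genes, and 32 of 39 (82.1%) lay within 0.25 of 0, as did 57.3% of all genes.

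Groups did not overlap for 21 of 39 members, 6 higher and 15 lower in the knockdown, or 53.8% where 58.6% of all genes did not overlap (33.4% higher and 25.2% lower). This split depended on the scaling of the libraries. After scaling all libraries to 1 common sum, 15 members were higher and 6 lower without overlap, and the members' median was 0.067. The share of all genes without overlap was not computed under that scaling, so this count is not read as particular to the members. Limma then called 4 members higher (ATM, BRCA1, NBN and FANCL) and 1 lower (PARP1). Over all genes that scaling gave 2220 calls, 1640 higher and 580 lower, in place of 1349, 713 higher and 636 lower, and moved the median from 0.038 to 0.12.

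**Figure D1:**
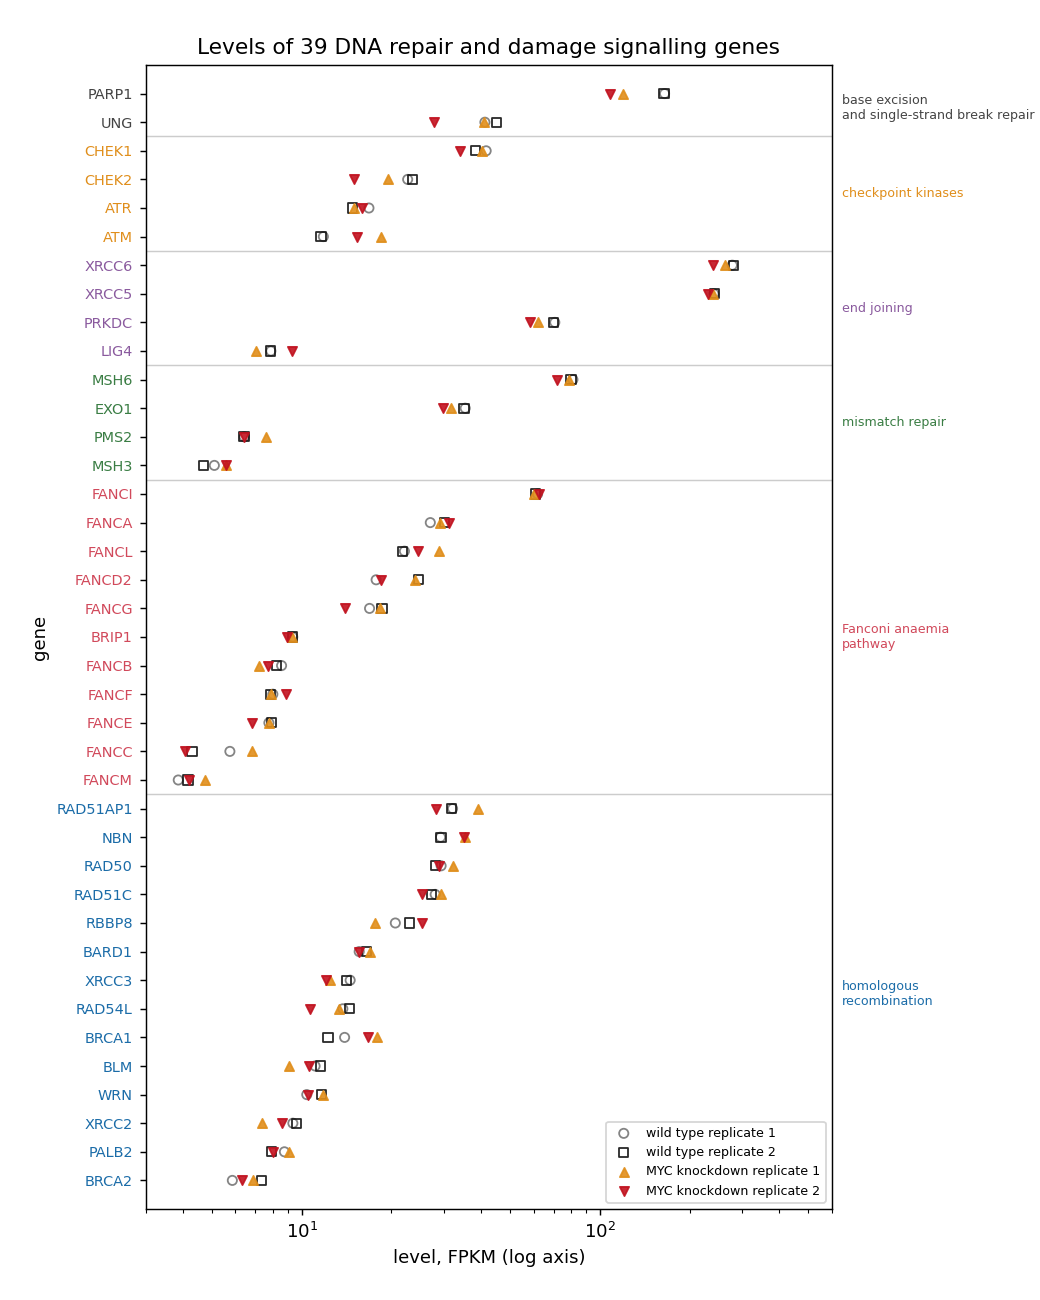
Level of each of the 39 genes in the 4 libraries, in FPKM on a log axis, grouped by role and ordered within a role by the wild-type mean; open symbols are wild type and filled symbols the knockdown. Levels run from 3.86 to 280.0 FPKM, the end-joining genes XRCC6 and XRCC5 are highest, and for PARP1 both knockdown symbols lie clearly to the left of the wild-type ones.

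**Figure D2:**
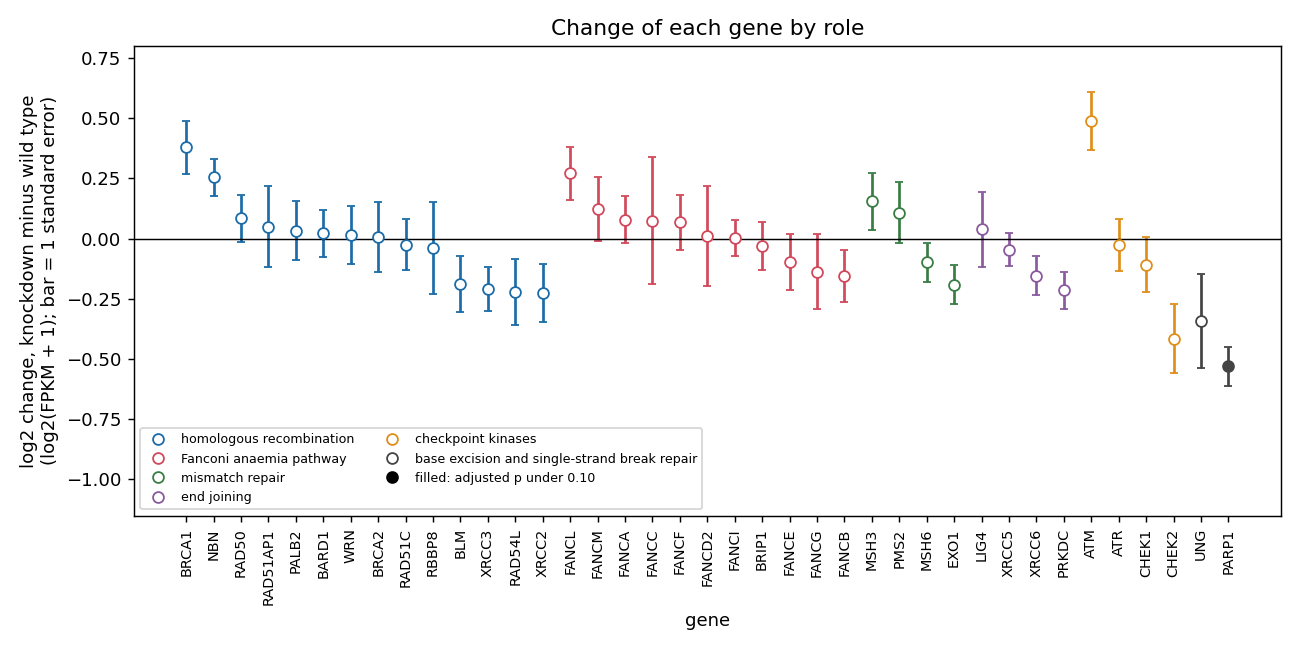
Log2 change of each gene, knockdown minus wild type on log2(FPKM + 1), by role, with 1 standard error of limma's fit (n = 2 libraries per group). PARP1 at −0.53 is the single filled point, ATM at 0.49 is the highest, and 32 of 39 points lie within 0.25 of 0.

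Base excision and single-strand break repair held the member that fell. PARP1 (ENSG00000143799; chromosome 1, 226360691 to 226408079, minus strand, GENCODE release 29 on GRCh38) stood at 165 and 164 FPKM in wild-type cells and 119 and 108 FPKM in knockdown cells. The wild-type values were nearly equal and both knockdown values lay far below them. The means were 164 ± 0.552 FPKM in wild type and 114 ± 7.99 FPKM in the knockdown (SD, n = 2 per group), a log2 change of −0.53 with a standard error of 0.082 (limma adjusted p = 0.0598). The fall had the same size without either wild-type library, at −0.53 each, but the call was then lost (limma adjusted p = 0.507 and 0.520, over a range of 0.00611 to 0.520 across the alternatives), since the spread rested on the knockdown pair. Without knockdown replicate 1 the log2 change was −0.60 and without knockdown replicate 2 it was −0.46, both past the threshold (limma adjusted p = 0.00611 and 0.00983). The call was also lost when genes with any value above 0 were tested (limma adjusted p = 0.145), a setting in which 0 of 24879 genes were called. The loss without a wild-type library was likewise general and not particular to PARP1. UNG, the glycosylase that cuts uracil out of DNA, stood at 41.2 and 44.98 FPKM in wild-type cells and 40.8 and 27.9 FPKM in knockdown cells. Only knockdown replicate 2 was clearly low, and the log2 change of −0.34 (standard error 0.20) did not pass (limma adjusted p = 0.335). The log2 change of UNG was −0.61 without knockdown replicate 1 and −0.074 without knockdown replicate 2 (limma adjusted p = 0.0148 and 0.482), so its size rests on knockdown replicate 2.

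The sequence around the start of PARP1 is shown because it is the start of the gene that fell, beside that of ATM, the member with the largest difference in the other direction, and EXO1, whose window holds a match to a cell cycle motif. Each run covers 250 bases before to 50 bases after the RefSeq start on GRCh38.p14, 5′ to 3′ on the gene's strand, with motif matches in capitals.
PARP1, chr1:226408044-226408343, minus strand: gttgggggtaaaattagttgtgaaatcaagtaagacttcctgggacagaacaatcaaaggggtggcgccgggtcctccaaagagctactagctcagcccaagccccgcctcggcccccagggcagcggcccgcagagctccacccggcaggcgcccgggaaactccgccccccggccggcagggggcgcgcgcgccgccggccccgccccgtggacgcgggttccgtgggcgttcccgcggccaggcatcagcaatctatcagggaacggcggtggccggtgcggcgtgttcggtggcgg
ATM, chr11:108222817-108223116, plus strand: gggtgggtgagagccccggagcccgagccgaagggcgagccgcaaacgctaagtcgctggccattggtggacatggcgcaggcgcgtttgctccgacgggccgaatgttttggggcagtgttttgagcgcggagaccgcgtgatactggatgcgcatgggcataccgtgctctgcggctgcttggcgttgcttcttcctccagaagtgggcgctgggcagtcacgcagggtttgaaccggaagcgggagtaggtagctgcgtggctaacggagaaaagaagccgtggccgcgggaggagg
EXO1, chr1:241847954-241848253, plus strand: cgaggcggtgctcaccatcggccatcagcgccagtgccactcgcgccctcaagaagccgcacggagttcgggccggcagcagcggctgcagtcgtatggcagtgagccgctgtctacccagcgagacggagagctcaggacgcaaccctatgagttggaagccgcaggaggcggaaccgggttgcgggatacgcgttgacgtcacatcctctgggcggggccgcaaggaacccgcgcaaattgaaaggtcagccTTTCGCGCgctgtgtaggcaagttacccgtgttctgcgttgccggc
The motifs searched on both strands were the E-box CACGTG, to which MYC with its partner MAX is known to bind, and the E2F-type words TTTGGCGC, TTTCGCGC and TTTCCCGC, known from genes of S phase. No match to these letters lies in the PARP1 or ATM window. In EXO1 the word TTTCGCGC begins at base 5, counted from the start as base 1, and is in capitals. Of 39 members 34 had a window in the table, and 1 window was taken per member. The shares over all windows were not limited to 1 window per gene or to expressed genes, so the sets are not built alike. An E-box was present in 3 of the 34 (8.82%), those of BRCA2, RAD50 and FANCC, and in 7.26% of all 35116 windows. An E2F-type word was present in 7 of the 34 (20.6%), those of XRCC2, FANCC, FANCD2, EXO1, MSH3, MSH6 and XRCC6, and in 2.74% of all windows. The 7 members with such a word had a median log2 change of −0.099 (range −0.23 to 0.15). The 27 without it had a median of −0.025 (range −0.53 to 0.49), and the difference was not tested. A match in letters is a description and not a bound site.

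Of the 4 checkpoint kinases 0 were called at 0.10, while ATM (higher) and CHEK2 (lower) had an unadjusted p under 0.05. ATM (ENSG00000149311; chromosome 11, 108222484 to 108369102, plus strand), the kinase that answers double-strand breaks, stood at 11.8 and 11.6 FPKM in wild-type cells and 18.4 and 15.4 FPKM in knockdown cells. Both knockdown values exceeded both wild-type values by far more than the wild-type pair differed, though the knockdown libraries differed from each other as well. Its log2 change of 0.49 (standard error 0.12, 95% interval 0.17 to 0.81) missed the threshold narrowly (limma adjusted p = 0.104). It passed with a filter of at least 5 FPKM on the mean (adjusted p = 0.0885), with scaling by the median of ratios (0.0910) and with equal FPKM sums (0.0583). It also passed without knockdown replicate 1 (log2 change 0.37, limma adjusted p = 0.0353) and without knockdown replicate 2 (0.61, 0.0149), and over all alternatives the adjusted p ran from 0.0149 to 0.608. CHEK2, the kinase that ATM activates, stood at 22.7 and 23.6 FPKM in wild-type cells and 19.4 and 15.02 FPKM in knockdown cells. Here both knockdown values were low, knockdown replicate 2 most of all, and the log2 change was −0.42 (standard error 0.14; limma adjusted p = 0.169). It passed with either knockdown library alone, with log2 changes of −0.59 without knockdown replicate 1 and −0.24 without knockdown replicate 2 (limma adjusted p = 0.0123 and 0.0634). ATR, which answers stalled replication forks, stood at 16.8, 14.8, 14.97 and 15.99 FPKM (wild type replicates 1 and 2, then knockdown replicates 1 and 2). Its target CHEK1 stood at 41.6, 38.4, 40.2 and 34.04 FPKM in the same order. The groups overlapped for ATR and CHEK1, with log2 changes of −0.026 (95% interval −0.31 to 0.26) and −0.11 (−0.41 to 0.19). CHEK1 had log2 changes of −0.23 without knockdown replicate 1 and 0.0079 without knockdown replicate 2 (limma adjusted p = 0.0860 and 0.941). It shares exon bases on the same strand with STT3A, listed at 178 to 194 FPKM, so its value is uncertain.

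Homologous recombination, with 14 members, had 0 called by limma at 0.10, 2 at an unadjusted p under 0.05, both higher, and a median log2 change of 0.011. BRCA1 (ENSG00000012048; chromosome 17, 43044295 to 43170245, minus strand), which directs repair of breaks by recombination, stood at 13.9 and 12.3 FPKM in wild-type cells and 17.9 and 16.7 FPKM in knockdown cells. Its knockdown values were both above its wild-type values, with a log2 change of 0.38 (standard error 0.11, 95% interval 0.091 to 0.67; limma adjusted p = 0.127). BRCA1 passed with either knockdown library alone, with log2 changes of 0.33 without knockdown replicate 1 and 0.43 without knockdown replicate 2 (limma adjusted p = 0.0839 and 0.0516). BARD1, with which BRCA1 forms a ubiquitin ligase, stood at 15.6 and 16.5 FPKM in wild-type cells and 17.01 and 15.6 FPKM in knockdown cells, a log2 change of 0.022 (95% interval −0.24 to 0.28). PALB2, the bridge to BRCA2, stood at 8.76 and 7.92 FPKM in wild-type cells and 9.11 and 8.01 FPKM in knockdown cells. BRCA2, which loads the recombinase onto single-stranded DNA, stood at 5.86 and 7.34 FPKM in wild-type cells and 6.89 and 6.33 FPKM in knockdown cells. The groups overlapped for BARD1, PALB2 and BRCA2, and the log2 changes of PALB2 and BRCA2 were 0.033 and 0.0078.

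The break sensors NBN and RAD50 and the resection factor RBBP8 act before the strand search. NBN stood at 29.2 and 29.4 FPKM in wild-type cells and 35.3 and 34.9 FPKM in knockdown cells, so each pair lay very close and the groups lay apart. Its log2 change was 0.25 (standard error 0.078; limma adjusted p = 0.139). NBN passed with either knockdown library alone, with log2 changes of 0.25 without knockdown replicate 1 and 0.26 without knockdown replicate 2 (limma adjusted p = 0.0413 and 0.0369). RAD50, which tethers broken ends in the same complex, stood at 29.4 and 28.1 FPKM in wild-type cells and 32.2 and 28.8 FPKM in knockdown cells, with the groups overlapping. RBBP8, also called CtIP, stood at 20.6 and 23.04 FPKM in wild-type cells and 17.6 and 25.4 FPKM in knockdown cells, and the knockdown values lay on either side of the wild-type pair. Its log2 change was 0.21 without knockdown replicate 1 and −0.29 without knockdown replicate 2 (limma adjusted p = 0.152 and 0.0873), so no direction can be given.

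Among the genes of strand exchange, XRCC2 and XRCC3, paralogs of the recombinase, and the motor protein RAD54L were lower without overlap, with log2 changes of −0.23, −0.21 and −0.22 that did not pass (limma adjusted p = 0.301, 0.239 and 0.366). XRCC3 stood at 14.6 and 14.1 FPKM in wild-type cells and 12.5 and 12.1 FPKM in knockdown cells, and RAD54L at 13.8 and 14.5 FPKM in wild-type cells and 13.4 and 10.7 FPKM in knockdown cells. For XRCC3 the knockdown libraries were alike, and for RAD54L only knockdown replicate 2 was clearly low. XRCC2 stood at 9.35 and 9.62 FPKM in wild-type cells and 7.39 and 8.58 FPKM in knockdown cells, with the lower value in knockdown replicate 1. Log2 changes of XRCC2 were −0.13 without knockdown replicate 1 and −0.32 without knockdown replicate 2 (limma adjusted p = 0.300 and 0.0624). Those of XRCC3 were −0.23 without knockdown replicate 1 and −0.19 without knockdown replicate 2 (limma adjusted p = 0.0866 and 0.130), and those of RAD54L −0.37 without knockdown replicate 1 and −0.071 without knockdown replicate 2 (limma adjusted p = 0.0396 and 0.514). RAD51C, a further paralog, stood at 28.1 and 27.3 FPKM in wild-type cells and 29.3 and 25.2 FPKM in knockdown cells, and the groups overlapped. RAD51AP1, a cofactor of strand pairing and the member of this group with the highest mean, stood at 32.1 and 31.9 FPKM in wild-type cells and 39.02 and 28.1 FPKM in knockdown cells. Its knockdown values straddled the wild-type pair, with log2 differences from the wild-type mean of 0.28 and −0.18. Taken alone, each passed in its own direction, with log2 changes of −0.18 without knockdown replicate 1 and 0.28 without knockdown replicate 2 (limma adjusted p = 0.0780 and 0.0314). The RecQ helicases BLM and WRN stood at 11.1, 11.6, 9.11 and 10.6 FPKM and at 10.4, 11.7, 11.8 and 10.5 FPKM in the order wild type 1 and 2, knockdown 1 and 2. BLM was lower without overlap, at a log2 change of −0.19 (limma adjusted p = 0.364), and WRN overlapped at 0.015. BLM had log2 changes of −0.092 without knockdown replicate 1 and −0.29 without knockdown replicate 2 (limma adjusted p = 0.427 and 0.0710).

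The 11 Fanconi anaemia genes had 0 calls at 0.10, 0 members at an unadjusted p under 0.05, and a median log2 change of 0.0098. FANCL, the ubiquitin ligase of the core complex, was furthest from 0, at 22.1 and 21.8 FPKM in wild-type cells and 28.9 and 24.6 FPKM in knockdown cells. Its knockdown values were both higher but differed from each other, with a log2 change of 0.27 (standard error 0.11; limma adjusted p = 0.211). FANCL had log2 changes of 0.16 without knockdown replicate 1 and 0.38 without knockdown replicate 2 (limma adjusted p = 0.120 and 0.0222). Of its substrates, FANCI stood at 61.8 and 60.7 FPKM in wild-type cells and 60.3 and 62.4 FPKM in knockdown cells, a log2 change of 0.0024 with a 95% interval of −0.19 to 0.20. FANCD2 stood at 17.8 and 24.6 FPKM in wild-type cells and 24.1 and 18.5 FPKM in knockdown cells, and here the wild-type pair was as far apart as the knockdown pair.

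FANCA, FANCB, FANCC, FANCE, FANCF and FANCG, further parts of the core complex, had log2 changes between −0.16 and 0.079, and 0 of them passed. FANCA stood at 27.01 and 30.1 FPKM in wild-type cells and 29.1 and 31.3 FPKM in knockdown cells, FANCB at 8.57, 8.23, 7.19 and 7.69 FPKM in the same order, and FANCE at 7.77, 7.92, 7.76 and 6.81 FPKM. FANCA overlapped between the groups, and FANCB and FANCE were lower without overlap, with log2 changes of −0.16 and −0.10. FANCG stood at 16.9, 18.6, 18.4 and 13.99 FPKM, low in knockdown replicate 2 alone, and FANCF at 8.01, 7.88, 7.88 and 8.90 FPKM, with overlap. For FANCG the log2 change was −0.32 without knockdown replicate 1 and 0.047 without knockdown replicate 2 (limma adjusted p = 0.0650 and 0.702). FANCC, at 5.75, 4.29, 6.83 and 4.06 FPKM, was high in replicate 1 of each group, and its log2 change of 0.075 had the widest interval of the members, −0.62 to 0.77. FANCM, the translocase that anchors the complex to DNA, was among the lowest members at 3.86, 4.16, 4.74 and 4.19 FPKM, with a log2 change of 0.12. BRIP1, a helicase that binds BRCA1, stood at 9.34, 9.30, 9.27 and 8.95 FPKM, and its log2 change of −0.030 had a 95% interval of −0.29 to 0.23.

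Mismatch repair had 4 members, 0 called at 0.10, 0 at an unadjusted p under 0.05, and a median log2 change of 0.0048. MSH6, which recognises mismatches, was the most abundant, at 81.2 and 80.1 FPKM in wild-type cells and 78.6 and 72.04 FPKM in knockdown cells. EXO1, the exonuclease that removes the faulty strand and also resects breaks, stood at 35.4 and 35.02 FPKM in wild-type cells and 31.6 and 29.9 FPKM in knockdown cells. Both were lower without overlap, by log2 changes of −0.10 and −0.19, and neither passed (limma adjusted p = 0.489 and 0.229). MSH6 had log2 changes of −0.16 without knockdown replicate 1 and −0.037 without knockdown replicate 2 (limma adjusted p = 0.0640 and 0.549), and EXO1 of −0.23 without knockdown replicate 1 and −0.15 without knockdown replicate 2 (limma adjusted p = 0.0454 and 0.104). MSH3, which recognises small loops, stood at 5.10 and 4.70 FPKM in wild-type cells and 5.57 and 5.56 FPKM in knockdown cells, higher without overlap at a log2 change of 0.15 (limma adjusted p = 0.458). PMS2, the endonuclease of the pathway, stood at 6.42 and 6.41 FPKM in wild-type cells and 7.61 and 6.42 FPKM in knockdown cells. Reads of PMS2 can be shared with its pseudogenes, of which PMS2P4 was listed at 5.92 to 14 FPKM, so its value is uncertain.

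End joining held the most abundant members and 0 calls at 0.10, with PRKDC (lower) under an unadjusted p of 0.05. The Ku subunits XRCC6 and XRCC5, which cap broken ends, stood at 278 and 280.0 FPKM in wild-type cells and 263 and 239 FPKM in knockdown cells, and at 241 and 243 FPKM in wild-type cells and 239 and 229.9 FPKM in knockdown cells. Both were lower without overlap, but by little, with log2 changes of −0.15 (95% interval −0.36 to 0.056) and −0.045 (−0.22 to 0.13). XRCC5 turned to 0.050 with equal FPKM sums. XRCC6 had log2 changes of −0.22 without knockdown replicate 1 and −0.084 without knockdown replicate 2 (limma adjusted p = 0.0245 and 0.158). PRKDC, the catalytic kinase subunit that Ku recruits, stood at 70.6 and 69.8 FPKM in wild-type cells and 62.2 and 58.5 FPKM in knockdown cells. Both knockdown values were below the closely spaced wild-type pair, with a log2 change of −0.22 (standard error 0.077; limma adjusted p = 0.176). PRKDC passed with either knockdown library alone, with log2 changes of −0.26 without knockdown replicate 1 and −0.17 without knockdown replicate 2 (limma adjusted p = 0.0272 and 0.0590). LIG4, the ligase of the last step, stood at 7.89 and 7.85 FPKM in wild-type cells and 7.04 and 9.32 FPKM in knockdown cells, with 1 knockdown value on each side of wild type.

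The knockdown libraries differed from each other more than the wild-type libraries did. Over the members the median absolute log2 difference was 0.052 within the wild-type pair and 0.16 within the knockdown pair, beside 0.076 and 0.20 over all genes tested. For 33 of 39 members the knockdown pair was the further apart. Knockdown replicate 1 was above knockdown replicate 2 in 30 of 39 members (76.9%), as it was in 60.5% of all genes. Measured from the wild-type mean, the members' median lay at −0.0070 in knockdown replicate 1 and at −0.074 in knockdown replicate 2. UNG, CHEK2, RAD54L and FANCG were lowest in knockdown replicate 2, while XRCC2 and BLM were lowest in knockdown replicate 1. The lower FPKM sum of knockdown replicate 2 and the interferon-stimulated genes of knockdown replicate 1 move with this difference, and their part in it was not tested. Without knockdown replicate 1, limma called 3 members higher and 12 lower, and without knockdown replicate 2 it called 5 higher and 6 lower, beside the 43% and 42.8% of all genes given above.

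**Figure D3:**
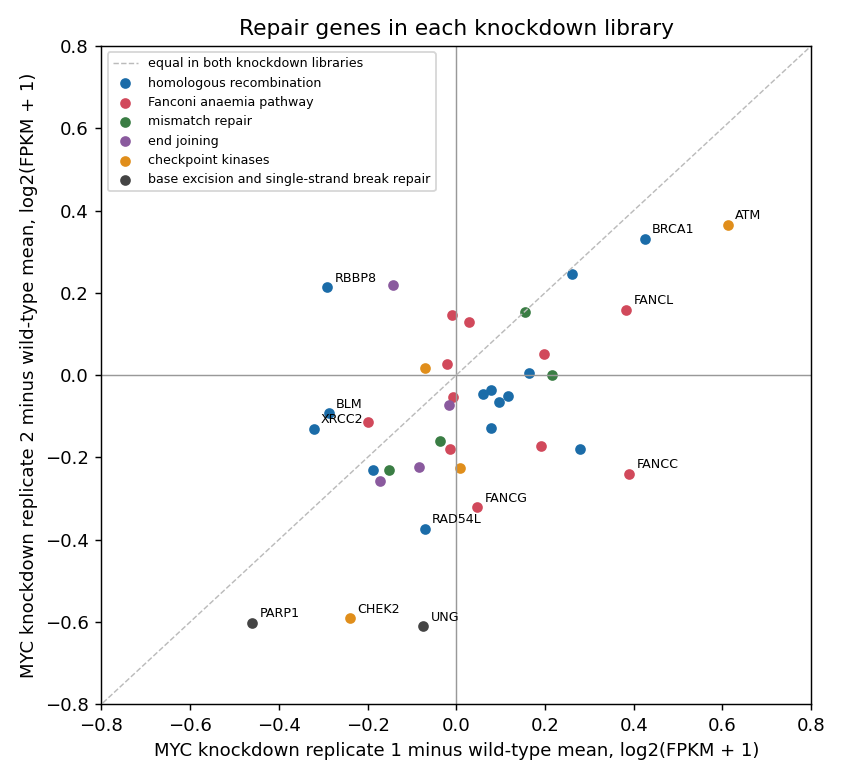
Difference of each gene from the wild-type mean on log2(FPKM + 1), in MYC knockdown replicate 1 (horizontal axis) and MYC knockdown replicate 2 (vertical axis), coloured by role. PARP1 is low in both libraries (−0.46 and −0.60) and ATM high in both (0.61 and 0.37), UNG is low mainly in replicate 2, and RBBP8 and FANCC have opposite signs in the 2 libraries; both axes share the wild-type mean.

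Proliferation markers were measured beside the repair genes. Of 12 such genes, among them MKI67 and the helicase subunits MCM2, MCM5 and MCM6, 0 were called by limma at 0.10, 1 (MKI67, lower) had an unadjusted p under 0.05, and their median log2 change was −0.13. MKI67 stood at 63.8 and 63.5 FPKM in wild-type cells and 46.5 and 53.01 FPKM in knockdown cells, a log2 change of −0.35 (limma adjusted p = 0.114). Their FPKM summed to 1364 and 1383 in wild type and to 1348 and 1247 in the knockdown. Their part in the members' differences was not tested.

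By position, 18 of the 39 genes start within 1000 bases of a protein-coding gene on the other strand in GENCODE release 29. NPAT, a regulator of histone genes whose start lies 158 bases from that of ATM, stood at 12.99, 13.2, 15.1 and 14.9 FPKM, a log2 change of 0.18 against 0.49 for ATM. MCM4, a helicase subunit whose start lies 2 bases from that of PRKDC, stood at 130.3, 96.6, 126 and 100.2 FPKM, with no separation of the groups. ABHD13, 11 bases from LIG4, went from 6.18 and 6.71 FPKM to 9.91 and 9.53 FPKM and rose by a log2 change of 0.53 (limma adjusted p = 0.0837) where LIG4 had 0.038. It was the only 1 of the 13 neighbours tested that passed. The difference between member and neighbour was not tested. Exons of 17 members overlap those of a gene on the other strand. Among them are ATM with NPAT, XRCC3 with KLC1, at 71.5 to 77.5 FPKM, and FANCL with VRK2. VRK2 stood at 16.8 and 15.8 FPKM in wild-type cells and 21.2 and 19.8 FPKM in knockdown cells. The use of strand in counting was not given in the sources used here, so reads of such pairs may not have been told apart.

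Further repair and damage response genes were taken from 8 lists of 134 genes, of which 132 passed the filter. Limma called 4 higher and 4 lower at 0.10 (6.06%, beside 10.4% of all genes) and 0 at 0.05. At an unadjusted p under 0.05 there were 19, where 25.9% of all genes lay under it. The median log2 change was 0.0047, beside 0.038 over all genes tested. By count, 0 of 22 further recombination genes, 0 of 12 end joining genes, 0 of 6 mismatch repair genes and 0 of 17 base excision genes were called. At an unadjusted p under 0.05 these held 1, 2, 0 and 2 genes. Of the 6 mismatch repair genes tested 5 had negative log2 changes, LIG1 being the exception, as had 5795 of all 12953 genes. The list's median was −0.22, and measured from the wild-type mean it was −0.081 in knockdown replicate 1 and −0.39 in knockdown replicate 2, so its size rests mainly on the latter.

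Damage signalling held the largest difference among the genes that passed. H2AFX (ENSG00000188486), the histone H2A variant that is phosphorylated around breaks, stood at 69.00 and 68.7 FPKM in wild-type cells and 134 and 139.7 FPKM in knockdown cells. Each pair was close and the knockdown level was far higher, with means of 68.8 ± 0.212 FPKM in wild type and 137 ± 3.78 FPKM in the knockdown (SD, n = 2 per group) and a log2 change of 0.98 (standard error 0.071; limma adjusted p = 0.0556). TIPIN, a fork protection factor of the same list of 20 genes, fell from 22.7 and 26.04 to 17.96 and 17.1 FPKM (log2 change −0.45; limma adjusted p = 0.0971). RAD18, the ubiquitin ligase that starts translesion synthesis, was the 1 call among 17 crosslink and translesion genes (5.88%, beside 10.4% of all genes). It fell from 16.2 and 15.5 to 11.8 and 10.5 FPKM (log2 change −0.47, limma adjusted p = 0.0914).

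Among 20 nucleotide excision repair genes, ERCC2, a helicase of the general factor TFIIH, fell and CETN2, a subunit of the damage sensor complex, rose. ERCC2 stood at 33.1 and 31.8 FPKM in wild-type cells and 22.7 and 16.6 FPKM in knockdown cells, a log2 change of −0.71 (limma adjusted p = 0.0938). CETN2 stood at 40.9 and 43.01 FPKM in wild-type cells and 53.2 and 53.7 FPKM in knockdown cells, a log2 change of 0.34 (limma adjusted p = 0.0925). The 18 genes known to be induced by p53 had 2 called higher and 1 lower (16.7%, beside 10.4% of all genes). Their median was −0.039, beside 0.038 over all genes tested. GADD45A, a growth arrest protein, fell, at 34.2 and 30.9 FPKM in wild-type cells and 17.6 and 15.2 FPKM in knockdown cells and a log2 change of −0.95 (limma adjusted p = 0.0556). TP53I3, an oxidoreductase, rose, at 5.15 and 4.16 FPKM in wild-type cells and 8.25 and 9.34 FPKM in knockdown cells and a log2 change of 0.80 (limma adjusted p = 0.0712). RRM2B, named after its value was seen, a ribonucleotide reductase subunit that supplies nucleotides for repair, rose too, at 11.2 and 12.7 FPKM in wild-type cells and 17.8 and 16.8 FPKM in knockdown cells and a log2 change of 0.50 (limma adjusted p = 0.0886). Without either wild-type library 0 of these 8 genes remained called, as the spread then rested on the knockdown pair.

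**Figure D4:**
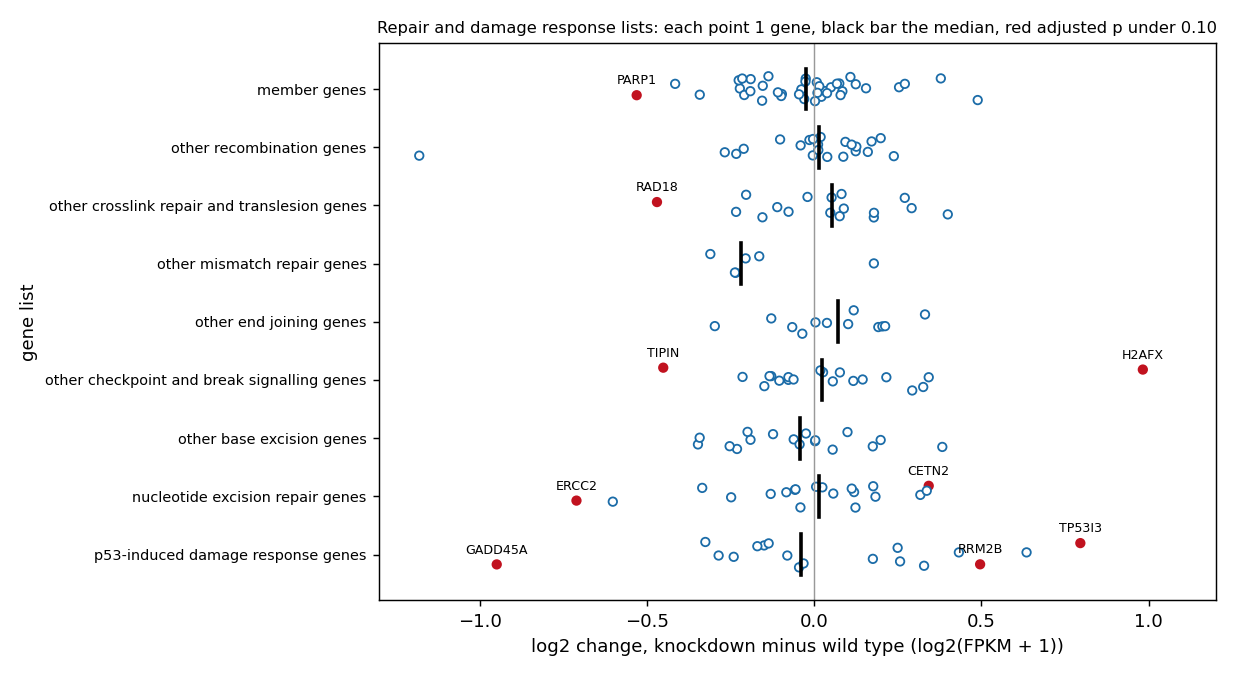
Log2 change, knockdown minus wild type on log2(FPKM + 1), of the 39 member genes and of each further repair or damage response list; each point is 1 gene, the black bar is the list's median and red points have an adjusted p under 0.10. H2AFX at 0.98 and GADD45A at −0.95 are the called genes furthest from 0, and the medians of the lists lie between −0.22 and 0.070.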

How the data were processed

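Transcript levels came from 4 RNA libraries of NUGC3 cells, grouped by the labels. Per the labels' protocols, total RNA was taken with Trizol and made into Illumina libraries. The tools STAR and RSEM are named in the submitters' processing notes, while versions, genome build and annotation were not given in the sources used here. No label or header names the unit of the deposited values, and it was inferred here as FPKM from their distribution. TPM with rows left out cannot be fully told apart from FPKM. Relative depth was read from the steps between low values, while absolute depth and counts were not recovered.

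Of 344810 rows in the table, the 53777 with Ensembl IDs were used. The 12953 reaching 1 FPKM in 2 or more libraries entered a fit to log2(FPKM + 1) by limma 3.58.1 in R 4.3.3 (lmFit, eBayes with a mean trend) and Benjamini-Hochberg adjustment over all of them. Groups do not overlap where both values of a group lie above both of the other. The fit was tested on simulated data. The members, lists, motifs and the threshold of 0.10 were chosen with earlier results of these data known, among them that 0 genes pass 0.05. By the rule for named genes, any member may be named, with full values for those past 0.10 and for the most changed and most abundant of each role. Of each further list the rule takes the 2 genes past 0.10 with the smallest p. RRM2B, MKI67 and the neighbours of members were picked with their values in view. Of 220 list symbols 219 matched. Positions come from GENCODE release 29 by gene ID and promoter sequences from RefSeq on GRCh38.p14 by symbol (34 of 39 matched). Alternatives were the filter (all rows above 0 in any library, or a mean of 5 FPKM), the pseudocount (0.1), a replicate block, each library left out, 3 scalings, a threshold of 0.05 and no mean trend. No batch is given in the labels. Some items are not reported here.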

Additional observations from a re-analysis of the deposited data

How the results depend on the processing

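Of the 39 members, 22 kept their direction under every alternative run, PARP1, ATM, BRCA1, CHEK2, NBN and PRKDC among them, and 17 did not, all of them between −0.14 and 0.075. The members called at 0.10 (0 higher and 1 lower) were 0 and 0 with all genes above 0 tested and at 0.05, 1 and 1 with the filter at a mean of 5 FPKM or with the median of ratios, and 4 and 1 with equal column sums. Over all genes those settings called 0%, 0%, 15.6%, 12.9% and 17.1%, in that order, beside 10.4% in the main fit. With 1 library left out they ranged from 0 to 5 higher and from 0 to 12 lower, members without overlap from 10 to 14 higher and from 17 to 20 lower, and their median from −0.074 to −0.0070. With 1 library left out, groups are compared as 1 library against 2, where a lack of overlap is met more easily than at 2 against 2. The share of all genes without overlap was not computed there. The larger counts, beside 6 higher and 15 lower in the main fit, are therefore not read as particular to the members. With equal column sums the members' median was 0.067 and members without overlap were 15 higher and 6 lower, with no share over all genes computed. MYC ranged from −0.34 to −0.12 with 1 library left out, and passed only without MYC knockdown replicate 2.

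The alternatives for MYC and for the further lists were added after seeing the data. Calls among these lists (4 higher and 4 lower) were 0 and 0 with all genes above 0 tested and at 0.05, 2 and 1 without a mean trend, 9 and 3 with equal column sums, 4 and 8 with the median of ratios, 0 to 26 higher and 0 to 31 lower with 1 library left out, and 1 and 2 with a replicate block. Limma called 10.4% of all genes in the main fit and 6.47% without a mean trend. It called 17.1% with equal column sums, 12.9% with the median of ratios and 5.58% with the replicate block. With either knockdown library left out, the share of all genes called was also far larger, as given above. The larger counts are therefore not read as particular to these lists. With the replicate block 723 genes were called in place of 1349, and PARP1 remained the 1 member called. Deviations of same-numbered libraries had a Pearson correlation of −0.0059 across 12953 genes. That shows no shared shift by number, but it cannot exclude that same-numbered libraries were handled together, which the labels do not say. With 1 library left out, the lone library was taken to vary like the other group.

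Log2 changes of members on the other side of 0 were, with equal column sums, RAD51C 0.067, RBBP8 0.053, BRIP1 0.057, XRCC5 0.050 and ATR 0.064. With the median of ratios they were BRCA2 −0.029, BARD1 −0.018, PALB2 −0.0053, WRN −0.024, FANCD2 −0.031 and FANCI −0.039, and with quantile normalization BRCA2 −0.087, BARD1 −0.011, PALB2 −0.071, WRN −0.063, FANCC −0.0090, FANCD2 −0.025, FANCF −0.028, FANCI −0.0048 and LIG4 −0.052. With 1 library left out the log2 change ranged from −0.13 to 0.15 for BRCA2, from −0.036 to 0.079 for BARD1, from −0.050 to 0.12 for PALB2, from −0.13 to 0.078 for RAD51C, from −0.18 to 0.28 for RAD51AP1, from −0.066 to 0.10 for WRN, from −0.29 to 0.21 for RBBP8, from −0.24 to 0.39 for FANCC, from −0.21 to 0.23 for FANCD2, from −0.010 to 0.15 for FANCF, from −0.32 to 0.047 for FANCG, from −0.021 to 0.026 for FANCI, from −0.14 to 0.22 for LIG4, from −0.11 to 0.061 for ATR and from −0.23 to 0.0079 for CHEK1. The cause was not tested. The depth behind each value is not given, so no counting error is stated.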

Other observations

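A few genes of the further lists had 1 library far from the other 3, and they are named after their values were seen. RAD51B, a paralog of the recombinase, stood at 3.54 and 16.4 FPKM in wild-type cells and 2.59 and 3.29 FPKM in knockdown cells, so wild type replicate 2 was high alone. RAD23B, a damage recognition factor, stood at 112 and 109 FPKM in wild-type cells and 49.9 and 105 FPKM in knockdown cells, with knockdown replicate 1 low alone. CDKN1A, the cell cycle inhibitor p21, stood at 16.01 and 17.7 FPKM in wild-type cells and 18.00 and 39.3 FPKM in knockdown cells, with knockdown replicate 2 high alone. Their log2 changes of −1.18, −0.60 and 0.64 did not pass (limma adjusted p = 0.321, 0.348 and 0.342).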
